A study of Mus musculus with 11 samples.

Results

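The 8 genes described here are the aryl hydrocarbon receptor gene Ahr, its partner gene Arnt, its repressor genes Ahrr and Tiparp, and 4 target genes, Cyp1a1, Cyp1a2, Cyp1b1 and Nqo1. They were chosen by name as the receptor, its complex and its classical targets, among 43346 genes counted in the colon. RNA of colon tissue was sequenced from 5 germ-free mice and 6 humanized mice, all male Swiss Webster mice that were housed singly and studied at 8 to 10 weeks of age. The humanized mice had been germ-free until 4 to 5 weeks of age, then received 300 μL of stool suspension from 1 human donor by gavage, and had 4 to 5 weeks to adapt. Since a single stool donor was used, the humanized group represents 1 human microbiota, and the samples are whole colonic tissue, in which no cell type was isolated.

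The aryl hydrocarbon receptor (AhR) is a transcription factor held in the cytosol by chaperones until it binds a planar aromatic ligand, such as an indole made from tryptophan by gut bacteria or a component of the diet. It then enters the nucleus, pairs with ARNT and binds DNA at xenobiotic response elements, which turns on the CYP1 oxidases and also the repressors AHRR and TIPARP that limit the response. In the intestine it is known for its roles in the epithelium and in innate lymphoid cells, and the CYP1 enzymes clear its own ligands as well as drugs. Nqo1 encodes a quinone reductase that is a target both of AhR and of NRF2, the regulator of genes against oxidative and electrophilic stress.

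Promoter sequences of 4 members are shown because the stretch shown carries, or lacks, the motif at which the receptor is known to bind. The sequences are those of the repressor Ahrr, the oxidases Cyp1a1 and Cyp1b1, and Nqo1, the member with the clearest difference between the groups. Each is the RefSeq window of 300 bases on GRCm38.p6, from 250 bases before the start of the gene to 50 bases after it, read 5′ to 3′ on the strand of the gene, with the core of the xenobiotic response element, GCGTG, in capitals on either strand (CACGC on the other strand). The windows lie at chr13:74292282-74292581 on the minus strand for Ahrr, chr9:57697363-57697662 on the plus strand for Cyp1a1, chr17:79715012-79715311 on the minus strand for Cyp1b1 and chr8:107403156-107403455 on the minus strand for Nqo1.
Ahrr: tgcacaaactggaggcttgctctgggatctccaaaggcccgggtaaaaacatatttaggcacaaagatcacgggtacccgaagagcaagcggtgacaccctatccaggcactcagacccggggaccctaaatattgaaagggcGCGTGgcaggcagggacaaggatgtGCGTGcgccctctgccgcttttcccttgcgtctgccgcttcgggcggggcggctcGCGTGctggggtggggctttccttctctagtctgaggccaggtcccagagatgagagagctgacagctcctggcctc
Cyp1a1: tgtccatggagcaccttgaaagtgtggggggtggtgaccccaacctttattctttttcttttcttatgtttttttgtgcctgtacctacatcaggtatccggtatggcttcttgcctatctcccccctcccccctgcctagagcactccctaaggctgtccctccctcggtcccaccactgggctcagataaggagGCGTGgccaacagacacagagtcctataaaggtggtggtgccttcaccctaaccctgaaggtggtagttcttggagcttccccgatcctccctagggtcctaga
Cyp1b1: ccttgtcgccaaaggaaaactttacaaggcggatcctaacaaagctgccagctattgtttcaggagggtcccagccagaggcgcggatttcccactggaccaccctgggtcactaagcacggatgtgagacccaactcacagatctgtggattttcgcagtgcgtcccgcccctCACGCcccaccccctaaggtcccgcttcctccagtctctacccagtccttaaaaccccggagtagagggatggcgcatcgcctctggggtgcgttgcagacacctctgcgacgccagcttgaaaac
Nqo1: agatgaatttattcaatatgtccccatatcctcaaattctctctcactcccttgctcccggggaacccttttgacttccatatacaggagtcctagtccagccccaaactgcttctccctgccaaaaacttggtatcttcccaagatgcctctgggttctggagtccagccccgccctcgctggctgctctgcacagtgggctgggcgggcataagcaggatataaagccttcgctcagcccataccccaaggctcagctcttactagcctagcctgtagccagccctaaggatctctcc
The Ahrr window held the core 3 times, the windows of Cyp1a1, Cyp1b1, Arnt and Tiparp held it once each, and those of Cyp1a2 and Nqo1 did not hold it. Of all 32851 promoter windows of the same length, 32.4% held GCGTG at least once and 3.92% held it 3 times or more. The longer form TNGCGTG was found in the Ahrr window among the 7 windows of members, and in 5.07% of all windows. The antioxidant response element TGACNNNGC, at which NRF2 is known to bind, occurred 2 times in the Arnt window and in 12.4% of all windows, and was not found in the Nqo1 window. Of the 8 members, 7 had a window in the RefSeq table, all but Ahr. These matches describe letters in a window and no binding was measured. Bases further than 250 before the start of a gene, or more than 50 after it, were not searched. A window with few or no matches therefore does not show how many sites the gene has elsewhere.

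Between 49097005 and 64148538 reads per germ-free mouse and between 39125290 and 54219854 per humanized mouse were counted on genes. Levels are given as RPKM, read counts scaled to gene length and library size, computed with TMM normalization and the deposited gene lengths. The tested genes, 19863 in all, were compared with edgeR's exact test at FDR below 0.01, and a positive log2-fold change (LFC) means a higher level in humanized mice, with its standard error (SE) taken from the quasi-likelihood fit. Over all tested genes, 9.20% were called higher and 10.1% lower in humanized mice, and the median LFC was 0.01. Epithelial markers of the colon were abundant in every library, with summed levels of the 11 genes from 4429 to 6032 RPKM in germ-free and from 5087 to 7063 RPKM in humanized mice. Markers of the deeper tissue layers differed between the groups, and in whole tissue fewer cells of a type cannot be told apart from less RNA per cell. All 8 smooth muscle markers and 6 of 8 fibroblast markers were called lower in humanized mice, with median LFCs of −1.91 and −1.44. The quasi-likelihood test called 4 of each list lower, against 6.53% of all tested genes.

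Of the 8 members, 7 passed the filter on low counts and 1 of these, Nqo1, was called, with 1.66-fold higher levels in humanized mice. None was called lower, against a background of 10.1% lower over all tested genes. The quasi-likelihood test and DESeq2 also called none lower, while 4 members, Ahr, Tiparp, Cyp1a1 and Cyp1b1, were lower at an unadjusted p below 0.05 in the exact test of edgeR, as were 19.0% of all tested genes. At FDR below 0.05, at which 14.6% of all tested genes were lower, Ahr and Cyp1a1 were called lower. With libraries scaled to total counts or to the epithelial markers, 3 members were called lower in each, Ahr, Tiparp and Cyp1a1. These scalings called 18.2% and 13.9% of all tested genes lower. Of the 7 tested members, 6 had an LFC below 0, with a median over the 7 of −0.25, but these 6 values turned positive when libraries were scaled to the fibroblast markers, which moved the median LFC of all genes to 1.99 and gave 80.9% of all genes as higher. Relative to that median, the 6 LFCs lay between −1.81 for Cyp1b1 and −0.0002 for Arnt.

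**Figure D1:**
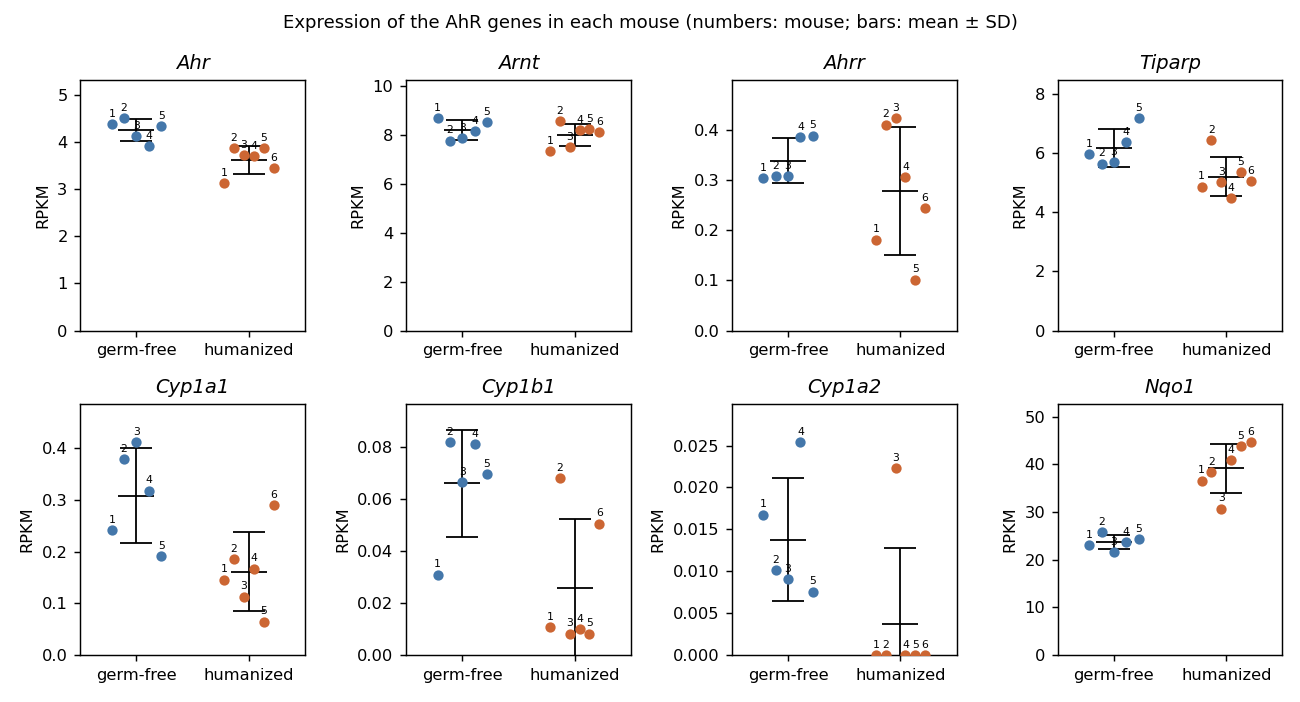
Level of each of the 8 members in every mouse (vertical axis, RPKM with TMM normalization, each panel on its own scale), with germ-free mice (n = 5) and humanized mice (n = 6) as points marked with the number of the mouse, and lines for the mean ± SD, which end at the axis where they would pass below 0. Nqo1 lies higher in every humanized mouse than in any germ-free mouse, and Ahr lies lower, while the groups overlap for the other 6 genes.

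The order of the members by level was the same in both groups. In germ-free mice it ran from Nqo1 (23.7 RPKM) over Arnt (8.21 RPKM), Tiparp (6.17 RPKM) and Ahr (4.25 RPKM) to Ahrr (0.338 RPKM), Cyp1a1 (0.308 RPKM), Cyp1b1 (0.0661 RPKM) and Cyp1a2 (0.0138 RPKM). Neighbours in this order whose ranges overlapped were Ahrr and Cyp1a1 in both groups, and also Cyp1a1 with Cyp1b1 and Cyp1b1 with Cyp1a2 in humanized mice. Ahr stood at the 50.8 percentile of the tested genes in germ-free mice and Nqo1 at the 87.1 percentile, whereas Cyp1a1 stood at the 11.5 percentile. Ahr was measured by 706 to 1869 reads in each mouse and Arnt by 2159 to 4778, whereas no mouse had more than 63 reads of any of the 3 CYP1 genes.

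Ahr (ENSMUSG00000019256) lies at chr12:35497974-35535038 of mm10, the build of the deposited positions. The levels in the 5 germ-free mice, numbered 1 to 5, were 4.38, 4.51, 4.12, 3.92 and 4.34 RPKM, against 3.12 at the lowest, 3.71 at the median and 3.88 at the highest of the 6 humanized mice. Every humanized mouse was thus below every germ-free mouse, with 3.88 and 3.92 RPKM as the nearest values. Mean levels were 4.25 ± 0.235 RPKM (SD, n = 5) and 3.62 ± 0.293 RPKM (SD, n = 6), which is an LFC of −0.23 (SE 0.07, 95% interval from −0.37 to −0.10) or 85.2% of the germ-free level. The difference did not pass the threshold (FDR = 0.0377, and from 0.0236 to 0.120 when each mouse was left out in turn), while the exact permutation test over the mice, two-sided on log2 CPM, gave p = 0.00433, the smallest that 5 mice against 6 allow. A lower, non-overlapping level was found in 9.73% of all tested genes. Under total-count scaling, where 18.2% of all genes were called lower, the LFC was −0.42 (FDR = 7.76e-04), and scaled to the epithelial markers, where 13.9% were called lower, it was −0.47 (FDR = 0.00992). These scalings moved the median of all genes to −0.18 and −0.23, so the LFC relative to that median was −0.24 in both. The annotated gene Gm48236 overlaps Ahr over 127 bases.

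Arnt (ENSMUSG00000015522, chr3:95434388-95497240), which encodes the partner that AhR shares with the hypoxia factors, was 8.21 ± 0.403 RPKM (SD, n = 5) in germ-free and 8.00 ± 0.466 RPKM (SD, n = 6) in humanized mice. The groups overlapped over most of their range, from 7.77 to 8.70 RPKM and from 7.34 to 8.56 RPKM. The LFC was −0.04 (SE 0.05, 95% interval from −0.14 to 0.07, FDR = 0.747), a difference smaller than the spread between mice of a group. The exact permutation p was 0.437.

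Ahrr (ENSMUSG00000021575, chr13:74211118-74292331), the gene of the AhR repressor, which competes with AhR for ARNT, was low in both groups. The germ-free mice had 0.303, 0.307, 0.308, 0.385 and 0.388 RPKM and the humanized mice ranged from 0.102 over a median of 0.275 to 0.423 RPKM. The humanized mice thus reached both below and above the germ-free range, and their coefficient of variation was 45.8% against 13.0%. The LFC was −0.29 (SE 0.30, FDR = 0.562), with an exact permutation p of 0.294, and it moved between −0.45 without humanized mouse 3 and −0.11 without humanized mouse 5. Ranked within the humanized mice, Ahrr followed the order of the summed leukocyte markers, from mouse 5 as the lowest (7.43 RPKM of leukocyte markers) to mouse 3 as the highest (28.4 RPKM). The fibroblast and endothelial markers also ran from mouse 5 as the lowest to mouse 3 as the highest. In the germ-free mice the order did not match, since mouse 5 had the highest Ahrr but 16.4 RPKM of leukocyte markers, below the 17.2 RPKM of mouse 1, which had the lowest Ahrr. The part of any of these cells in the level of Ahrr was not tested.

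Tiparp (ENSMUSG00000034640, chr3:65528410-65555518), which encodes the enzyme that ADP-ribosylates AhR and limits its activity, was 6.17 ± 0.633 RPKM (SD, n = 5) in germ-free and 5.20 ± 0.668 RPKM (SD, n = 6) in humanized mice. The germ-free mice had 5.95, 5.64, 5.70, 6.36 and 7.18 RPKM. The humanized mice ranged from 4.46 over a median of 5.04 to 6.43 RPKM, and all but mouse 2, the highest, were below the germ-free range. The LFC was −0.25 (SE 0.10, 95% interval from −0.43 to −0.06) and did not pass the threshold (FDR = 0.0836, exact permutation p = 0.0433). Without humanized mouse 2 it was −0.32 and passed (FDR = 0.00968), while without any of the other 10 mice it did not, with FDR values up to 0.262 and an LFC of −0.19 without germ-free mouse 5. Tiparp also passed under total-count scaling (LFC −0.43, FDR = 0.00159) and epithelial scaling (LFC −0.48, FDR = 0.00937). Relative to the median of all genes, these LFCs were −0.26 and −0.25. Reads of Tiparp may include those of 4931440P22Rik, which overlaps it over 223 bases and was counted with 44 to 209 reads per mouse, since the strand setting of the counting is not given in the sources used here.

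Cyp1a1 (ENSMUSG00000032315, chr9:57697613-57703822) encodes the oxidase that is the classical marker of AhR activity in the gut. It was counted with 40, 52, 63, 52 and 35 reads in the germ-free mice and with 8 at the lowest, 15.5 at the median and 38 reads at the highest in the humanized mice. Levels were 0.308 ± 0.0920 RPKM (SD, n = 5) and 0.161 ± 0.0762 RPKM (SD, n = 6), so that humanized mice had 52.5% of the germ-free level. Mouse 6 was the one humanized mouse inside the germ-free range of 0.191 to 0.411 RPKM, at 0.290 RPKM. The LFC of −0.93 (SE 0.34, 95% interval from −1.59 to −0.27) did not pass the threshold (FDR = 0.0337, exact permutation p = 0.0217). Cyp1a1 passed under total-count scaling (LFC −1.11, FDR = 0.00860) and epithelial scaling (LFC −1.19, FDR = 0.00753). Relative to the median of all genes, these LFCs were −0.93 and −0.96. Without humanized mouse 6 the LFC was −1.21 and passed (FDR = 0.00338), while without any other single mouse it did not, with FDR values up to 0.113. That mouse was also the highest humanized mouse in smooth muscle markers, at 298 RPKM against 38.0 to 120 RPKM in the other 5. It was the highest in epithelial markers as well, at 7063 RPKM, and the lowest in ILC3 and Th17 markers, at 23.2 RPKM. The link between any of these markers and Cyp1a1 was not tested.

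Cyp1b1 (ENSMUSG00000024087, chr17:79706953-79715041), which encodes the CYP1 oxidase known from tissues outside the liver, stromal cells among them, was counted with 10, 22, 20, 26 and 25 reads in the germ-free mice. In the humanized mice 4 had 2 reads each and the other 2, mouse 2 and mouse 6, had 13 reads each. Levels were 0.0661 ± 0.0208 RPKM (SD, n = 5) and 0.0260 ± 0.0265 RPKM (SD, n = 6), and the LFC of −1.34 (SE 0.55) did not pass the threshold (FDR = 0.0573, exact permutation p = 0.0346). The 95% interval of the LFC was wide, from −2.42 to −0.25. Without humanized mouse 2 the LFC was −1.84 (FDR = 0.00308), and without any other single mouse it did not pass, with FDR values up to 0.124. Fibroblast markers summed to 24.7 to 173 RPKM in the humanized mice, against 215 to 335 RPKM in the germ-free mice, and blood endothelial markers to 2.05 to 14.5 RPKM against 16.0 to 18.9 RPKM. Their part in the difference in Cyp1b1 was not tested.

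Cyp1a2 (ENSMUSG00000032310, chr9:57676937-57683655) lies 13957 bases from Cyp1a1 and encodes the CYP1 oxidase best known from the liver. It did not pass the filter, and with no filter on low counts edgeR's exact test gave an LFC of −1.50 (FDR = 0.398). It was counted with 2, 1, 1, 3 and 1 reads in the germ-free mice and with 2 reads in humanized mouse 3, the other 5 humanized mice having 0 reads. The ratio of humanized to germ-free reads, adjusted for library size, was 0.297 (exact 95% interval from 0.0307 to 1.49, counting error only), so no difference was detectable at this depth (exact permutation p = 0.0866). Hepatocyte markers were low throughout, at 3.05 to 6.06 RPKM in sum, and Alb, the gene of serum albumin, had at most 8 reads per mouse.

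Nqo1 (ENSMUSG00000003849, chr8:107388225-107403206) rose in humanized mice. The germ-free mice had 23.1, 25.7, 21.5, 23.7 and 24.3 RPKM, and the humanized mice ranged from 30.7 over a median of 39.6 to 44.6 RPKM. All 6 humanized mice were above all 5 germ-free mice. Mean levels were 23.7 ± 1.54 RPKM (SD, n = 5) and 39.2 ± 5.17 RPKM (SD, n = 6), an LFC of 0.73 (SE 0.09, 95% interval from 0.55 to 0.91) with FDR = 1.01e-10, and the exact permutation p was 0.00433. A higher, non-overlapping level was found in 8.67% of all tested genes. Scaled to the epithelial markers the LFC was 0.47 (FDR = 1.37e-04), or 0.70 above the median of all genes. Of the 11 epithelial markers, 2 (18.2%, against 9.20% of all tested genes) were called higher. All 11 had an LFC above 0, from 0.05 to 0.48 with a median of 0.21. The part of these cells in the rise of Nqo1 was not tested.

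**Figure D2:**
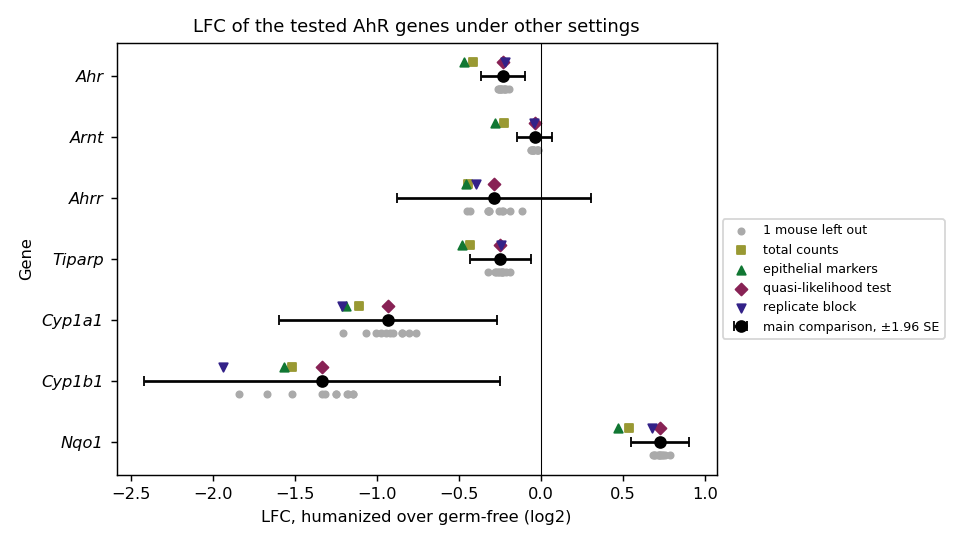
LFC of the 7 tested members (horizontal axis, log2 of humanized over germ-free), each as a black point with its 95% interval, beside grey points for the fits without 1 mouse and coloured symbols for total-count and epithelial scaling, the quasi-likelihood test and the replicate block. Nqo1 lies above 0 with its whole interval, the intervals of Ahr, Tiparp, Cyp1a1 and Cyp1b1 lie below 0 without passing FDR below 0.01, and those of Arnt and Ahrr include 0, while scaling to fibroblast markers (not drawn) shifts all genes and turns the 6 negative values positive, with each still below the median of all genes.

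The other genes around the receptor were described as lists. The 4 chaperone genes that hold AhR in the cytosol had a median LFC of 0.35, against 0.01 over all tested genes, and 1 of the 4 (25%, against 9.20% of all tested genes), Hsp90ab1, which encodes the constitutive HSP90, was called higher (LFC 0.39, SE 0.11, FDR = 0.00379, with 243 ± 26.1 and 319 ± 44.4 RPKM, SD). This call was lost under the quasi-likelihood test and when germ-free mouse 2 or 5 or humanized mouse 1 or 2 was left out. Of the bHLH-PAS relatives of AhR, 8 of 10 were tested, and 1 (12.5%, near the 9.20% of all tested genes), the clock gene Npas2, was called higher (LFC 0.56, SE 0.16, FDR = 0.00727). The quasi-likelihood test called none of the 8, and DESeq2 called 1 higher and 1 lower. Sim1 and Sim2 were not tested.

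Other genes known as AhR targets were called in both directions. Of 17 listed, 13 were tested, 4 were called higher and 2 lower, with a median LFC of 0.14, so that 30.8% were higher and 15.4% lower against 9.20% and 10.1% over all tested genes. Gpr15, the gene of a homing receptor of T cells for the colon, had the largest LFC of the list (1.68, SE 0.50, FDR = 0.00627), with 0.206 ± 0.0499 RPKM (SD, n = 5) in germ-free and 0.666 ± 0.561 RPKM (SD, n = 6) in humanized mice, where single mice ranged from 0.212 to 1.71 RPKM and overlapped the germ-free mice. Of 6 leukocyte markers, 2 (33.3%, against 9.20% of all tested genes) were called higher, the T cell gene Cd3e (LFC 1.15, FDR = 3.27e-06) and the B cell gene Cd79a (LFC 1.62, FDR = 0.00911), and the quasi-likelihood test called 1 of the 6. The other 4 were not called, with LFCs of 0.40 for Ptprc, 0.19 for Itgax, −0.53 for Csf1r and −0.67 for Adgre1, and the part of these cells in the difference in Gpr15 was not tested. Gsta1, a glutathione transferase gene, rose with an LFC of 1.08 (SE 0.14, FDR = 4.33e-09), though reads may be shared with its close paralog Gsta2. Ugt1a6a and Ugt1a6b, which encode glucuronosyltransferases of phenols, rose with LFCs of 0.44 each. Because they share exons of 1 locus their reads cannot be fully separated, so they are not 2 independent calls among the 4 called higher. Ereg, the gene of the growth factor epiregulin, fell from 5.09 ± 1.46 to 2.25 ± 0.920 RPKM (SD, LFC −1.18, SE 0.29, FDR = 5.98e-04), and Znrf3, a ubiquitin ligase gene that limits Wnt signalling, fell from 2.71 ± 0.306 to 1.97 ± 0.119 RPKM (SD, LFC −0.46, SE 0.08, FDR = 1.79e-04). Aldh3a1, Il22, Serpinb2 and Fgf21 did not pass the filter. The quasi-likelihood test called 1 gene of this list higher and 2 lower. Scaled to the fibroblast markers, the LFCs of Ereg and Znrf3 turned positive with the median of all genes and lay at −1.56 and −0.41 relative to it.

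Of the enzymes that make AhR ligands from tryptophan, 6 of 8 were tested, with 1 called higher and 1 lower (16.7% each, against 9.20% and 10.1% of all tested genes) and a median LFC of −0.10. Ido1, which encodes the first enzyme of the kynurenine route, rose from 4.05 ± 0.407 RPKM (SD, n = 5) to 17.0 ± 4.73 RPKM (SD, n = 6), an LFC of 2.07 (SE 0.19, FDR = 7.16e-23). Kyat1, the gene of a kynurenine aminotransferase, fell from 9.56 ± 0.464 to 7.14 ± 0.518 RPKM (SD, LFC −0.42, SE 0.06, FDR = 1.78e-05), which under scaling to the fibroblast markers turned positive with the median of all genes and lay at −0.36 relative to it. Ido2 and Aadat were not tested. Of 4 genes of proteins that pass electrons to P450 enzymes, 1 (25%, against 9.20% of all tested genes) was called higher, Por, the gene of P450 reductase (LFC 0.51, SE 0.08, FDR = 9.00e-07).

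Targets of NRF2, the other regulator of Nqo1, were higher in most cases. The list was written with earlier results of these data known, so its share of calls is no independent test. All 19 listed were tested, 16 (84.2%) were called higher against 9.20% over all tested genes, and the median LFC was 0.49. None was lower by edgeR's exact test, the quasi-likelihood test or DESeq2, also at an unadjusted p below 0.05, where 0 of 19 were lower. In 14 of the 19, all humanized mice were above all germ-free mice, as in 8.67% of all tested genes. Cbr3, the gene of a carbonyl reductase, rose from 4.69 ± 0.821 to 31.7 ± 5.64 RPKM (SD, LFC 2.75, SE 0.16, FDR = 1.13e-55). Akr1b8, an aldo-keto reductase gene, and Gsta3, a glutathione transferase gene, rose with LFCs of 2.02 (SE 0.20) and 1.60 (SE 0.26). At the low end of the called targets, Txnrd1, thioredoxin reductase, rose with an LFC of 0.41, Osgin1 with 0.34 and Gsr, glutathione reductase, with 0.32. With libraries scaled to the epithelial markers, 7 of the 19 were called higher, against 2.55% of all tested genes. The 7 genes that control NRF2, including Nfe2l2 and Keap1, had a median LFC of 0.12 and gave 0 calls in the edgeR exact test and in the quasi-likelihood test, while DESeq2 called 1 higher and 2 were higher at an unadjusted p below 0.05 in each of these tests. Nqo1, with an LFC of 0.73, stood above the median of the NRF2 targets.

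**Figure D3:**
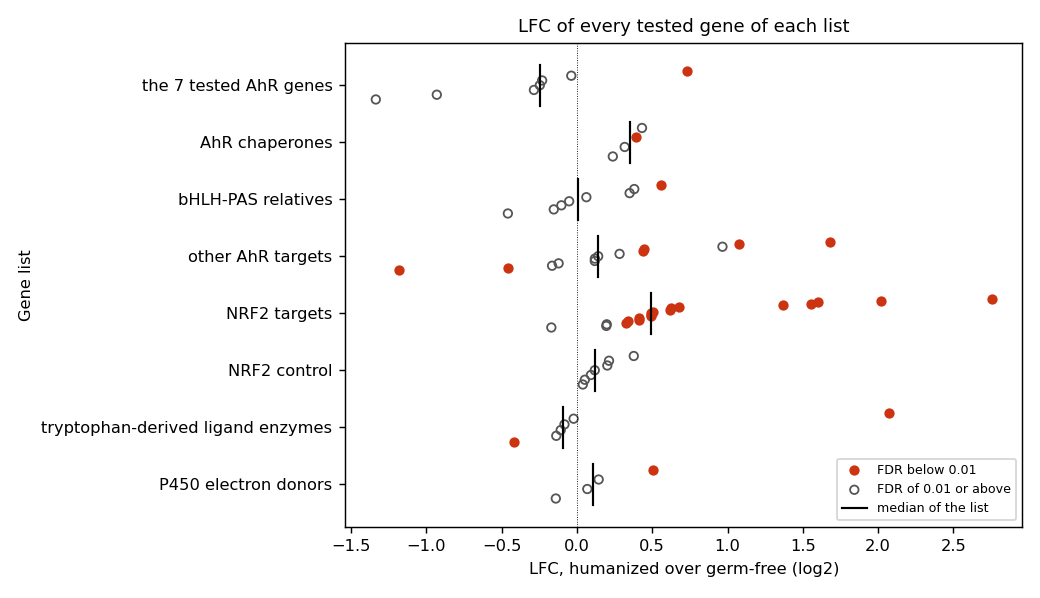
LFC of each tested gene (horizontal axis, log2 of humanized over germ-free) by list (rows), with filled points for genes at FDR below 0.01, open points for the rest and a line at the median of each list. The NRF2 targets lie to the right, 16 of 19 called higher, and the other AhR targets lie on both sides of 0, a split that holds for this scaling and not for that to fibroblast markers, which shifts the median of all genes to 1.99.

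Within the groups, the members differed in how much they varied from mouse to mouse. The coefficient of variation was 5.51% for Ahr in germ-free and 8.08% in humanized mice, 4.91% and 5.82% for Arnt, and 6.49% and 13.2% for Nqo1. It was 29.8% and 47.4% for Cyp1a1 and 31.5% and 102% for Cyp1b1, the members with the fewest reads of those tested. In the humanized mice the lowest level of Ahrr and Cyp1a1 was that of mouse 5, which also had the lowest sums of smooth muscle, fibroblast, endothelial and leukocyte markers. Mouse 1 had the lowest Ahr (3.12 RPKM) and Arnt (7.34 RPKM). Nqo1 was lowest in mouse 3 (30.7 RPKM), which had the lowest sum of epithelial markers of the humanized mice (5087 RPKM). Markers of ILC3 and Th17 cells, in which Ahr is known to act, summed to 35.9 to 47.0 RPKM in germ-free and 23.2 to 38.2 RPKM in humanized mice, with 1 of 4 tested called lower.

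**Figure D4:**
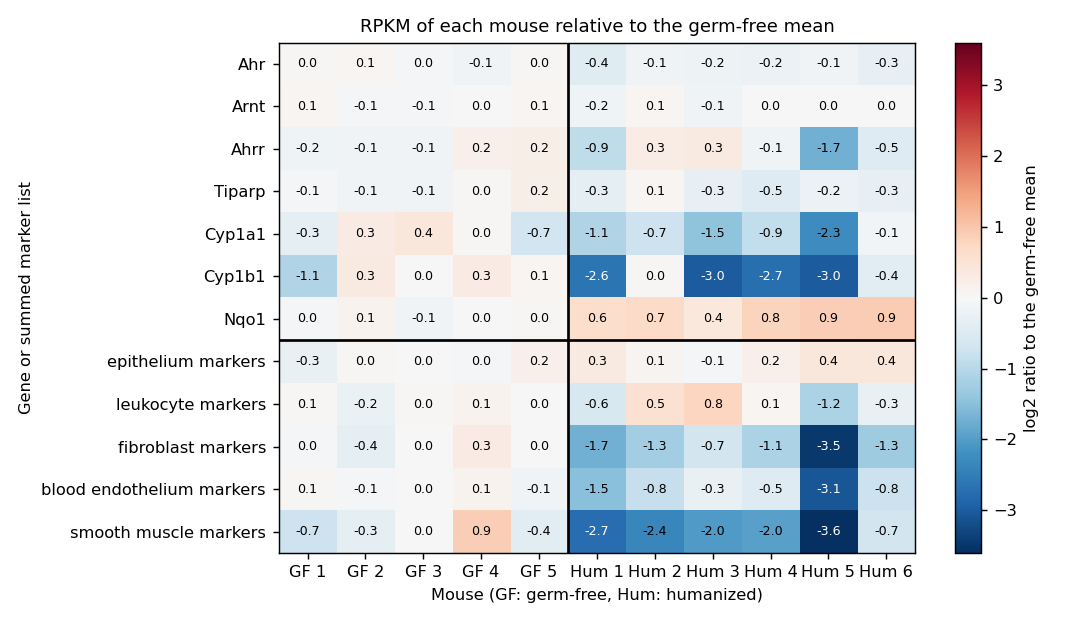
Level of 7 members, all but Cyp1a2, and the sums of the epithelial, smooth muscle, fibroblast, endothelial and leukocyte markers (rows) in every mouse (columns), coloured as the log2 ratio to the mean of the germ-free mice. The humanized columns show Nqo1 above and Ahr below the germ-free mean in all 6 mice, with Cyp1a1 and Cyp1b1 varying more between mice than Ahr, Arnt and Nqo1.

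The genes whose profile over the 11 mice was most like that of Ahr, by the root mean square difference of log2 CPM around the mean of each gene, were Exoc2 (0.0608), Shprh (0.0658) and Usp9x (0.0719), among 16068 candidates. Those most like Nqo1 included Cept1 (0.0658) and B4galnt2 (0.0876). Cept1 had 23.7 RPKM in germ-free and 39.8 RPKM in humanized mice, close to the levels of Nqo1. Exoc2 had 9.84 and 8.27 RPKM, an LFC of −0.25 against −0.23 for Ahr. Since these genes were picked for a profile like that of the member, a near LFC follows from the choice.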

How the data were processed

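Messenger RNA of the colon of 11 mice was sequenced with 101 bp paired-end reads. The authors aligned the reads to mm10 (TopHat2 2.1.0, Bowtie2 2.2.3) and counted them per gene with featureCounts (Subread 1.4.6-p5), and the deposited counts are not normalized. The table the authors deposited also holds gene positions and a coding length, whose computation is not given in the sources used here, nor is the strand setting. Groups and mouse numbers are those of the labels, which name no sequencing batch.

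In R 4.3.3, edgeR 4.0.16, another release than that of the study, was used with the steps of its methods, which are filterByExpr (at least 10 counts, 15 in total), TMM, the exact test, and FDR values by Benjamini-Hochberg over all 19863 tested genes with a threshold of 0.01. Standard errors came from the quasi-likelihood fit, and intervals are the LFC ± 1.96 SE. Each of the 8 members also had a two-sided exact permutation test on log2 (CPM + 0.5), by doubling the smaller tail and with no adjustment over the 8. Mice of the same group differed by a mean chi-square per gene of 21.2 to 132, far beyond sampling noise.

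The members and lists were chosen with earlier results of these data known. Of each pathway list, the called genes with the 3 highest and 3 lowest LFCs are named with values. Likeness used tested genes with a mean CPM of at least 1 and log2 CPM with a prior count of 2. The result of 1 gene is not reported here. Gene overlaps were read from a GENCODE annotation of GRCm38, possibly of another release than the one counted on.

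On simulated data of 19550 genes, the exact test found 77 of 91 genes changed by an LFC of 1 in either direction and 108 of 109 changed by 2, with 11 false calls. The quasi-likelihood test found 68 of 91 and 105 of 109, with 0 false calls. Only genes with a mean CPM above 1 were changed. This recovery therefore does not cover the CYP1 genes, which had fewer reads, or differences as small as those of Ahr and Tiparp. Alternatives were the quasi-likelihood test, DESeq2 1.42.0, RLE, upper-quartile, total-count, epithelial-marker and fibroblast-marker scaling, no filter, a minimum of 10 counts in each mouse, a looser FDR of 0.05, an added LFC limit of 1 in size, omission of each mouse, a replicate block, and pseudocounts of 0.1 and 1 CPM. Their use on the pathway lists was added after seeing the data.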

Additional observations from a re-analysis of the deposited data

Results flagged for a closer look

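Of the levels of the 8 members in the 2 groups, 16 sets of values in all, 1 held a mouse far from the others. Humanized mouse 3 had 0.0223 RPKM of Cyp1a2, from 2 reads, while the other 5 humanized mice had 0 reads. With the other 5 mice at 0 reads, any read in the remaining mouse sets it apart in this way, so the chance of about 1 in 20 that holds for other sets does not apply.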

How the results depend on the processing

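Depth limits the CYP1 genes, with at most 63 reads in any mouse. With 11 mice, the exact permutation test cannot give a p below 0.00433, and its differences kept their side of 0.05 with both other pseudocounts. Nqo1 was called higher under all 21 alternatives of the fit, with LFCs from 0.47 to 2.82. Members called higher numbered 5 under fibroblast scaling and 0 with an absolute LFC above 1. Members called lower numbered 3 under total-count scaling and 3 under epithelial scaling (Ahr, Tiparp and Cyp1a1 in both), 2 at FDR below 0.05, and 0 to 2 when each mouse was left out, with Tiparp and Cyp1b1 passing without humanized mouse 2 and Cyp1a1 without humanized mouse 6. Fibroblast scaling, which by its construction moved the median LFC of all genes to 1.99, reversed the LFC of Ahr to 1.80, of Ahrr to 1.23, of Arnt to 1.99, of Tiparp to 1.79, of Cyp1a1 to 0.63 and of Cyp1b1 to 0.18. Cyp1a1 and Cyp1b1 gave no value with at least 10 counts required in every mouse.

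Over all tested genes, the share called higher was 7.05% with the quasi-likelihood test, 7.87% under upper-quartile, 3.89% under total-count, 2.55% under epithelial and 80.9% under fibroblast scaling and 2.55% with the replicate block, against 9.20%. The share called lower was 6.53% with the quasi-likelihood test, 18.2% under total-count, 13.9% under epithelial and 0.101% under fibroblast scaling and 2.55% with the block, against 10.1%. The counts of calls here stand against these shares. For the lists, NRF2 targets called higher numbered 7 under epithelial scaling and 6 with the replicate block, against 16. Other AhR targets called higher numbered 1 with the quasi-likelihood test, total-count scaling, epithelial scaling and the replicate block, 12 under fibroblast scaling, and 2 to 5 when each mouse was left out (2 without germ-free mouse 3), against 4. Those called lower numbered 0 under fibroblast scaling and the replicate block, against 2. AhR chaperones called higher numbered 0 with the quasi-likelihood test, upper-quartile, total-count and epithelial scaling and the replicate block, 4 under fibroblast scaling, and 0 to 3 when each mouse was left out (0 without germ-free mouse 2 or 5 or humanized mouse 1 or 2, 2 without humanized mouse 4 and 3 without humanized mouse 5), against 1. Ligand enzymes called higher numbered 6 and called lower 0 under fibroblast scaling, and 0 lower with the replicate block, against 1 each. Beyond these shares, the cause of the differences was not tested. Same-numbered mice did not deviate together (correlations from −0.133 to 0.091), and the mouse numbers name different animals, so the replicate block is no paired analysis. With the block 1 member was called higher, Nqo1 (LFC 0.68, FDR = 0.00175), and 0 lower.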
